A study of Mus musculus with 6 samples.

Results

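Complement genes were examined in MC38, a mouse colorectal cancer cell line, by RNA-seq of 3 libraries carrying a control hairpin (shControl, genotype labelled WT) and 3 carrying a hairpin that targets Acsl4 (shACSL4, labelled as an Acsl4 knockdown). The group comprised 9 genes named in advance by symbol, 6 activating components (C1s1, C1ra, C2, C3, C4b and Cfb) and 3 inhibitors (Serping1, Cd55 and Cd59a), and 8 of them were found among the 22386 genes of the table. Cd55 is not analysed here. The genes were chosen with results of the shACSL4 comparison known, so their differences between the groups are given as a description and carry no test. All cells were grown in the same serum-supplemented medium, and the hairpin sequence, the number of clones and the separateness of the replicate cultures are not given in the sources used here. P-values for other genes therefore measure only the spread between these libraries, which may be technical. Sets of 3 values below follow the replicate numbers 1, 2 and 3 of each group.

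Complement is a cascade of proteases and opsonins. In the classical pathway C1q binds a target and activates the proteases C1r and C1s, which cut C4 and C2 into a convertase for C3. In the alternative pathway factor B, cut by factor D, forms a C3 convertase of its own, and both pathways lead through C5 to the membrane attack complex. C1 inhibitor (Serping1) blocks C1r and C1s, the membrane proteins Cd55, Cd46 and, in rodents, Crry (encoded by Cr1l) limit the convertases, and Cd59a blocks the last assembly step. The liver makes most plasma complement, while other cell types, tumour cells among them, can transcribe parts of the cascade.

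Promoter sequences of 3 activating members that were higher in all shACSL4 libraries are shown first, because their values are described together. C1ra and C1s1 are neighbours on chromosome 6, 6901 bases apart in the GRCm39 coordinates of the expression table, and C3 lies on chromosome 17. The windows span 250 bases before and 50 bases after the annotated start and come from RefSeq on GRCm38.p6, a different build, and 4 of the 8 members had an entry. They lie at chr6:124542310-124542609 on the minus strand (C1s1, the first of 2 overlapping entries), chr6:124512371-124512670 on the plus strand (C1ra) and chr17:57228087-57228386 on the minus strand (C3). Capitals mark matches, on either strand, to the motifs searched.
C1s1: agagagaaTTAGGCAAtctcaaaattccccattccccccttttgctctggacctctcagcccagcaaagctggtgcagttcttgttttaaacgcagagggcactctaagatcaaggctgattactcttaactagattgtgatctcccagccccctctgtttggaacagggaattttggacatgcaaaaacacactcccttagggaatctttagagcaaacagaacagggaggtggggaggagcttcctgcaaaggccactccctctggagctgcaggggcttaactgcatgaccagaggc
C1ra: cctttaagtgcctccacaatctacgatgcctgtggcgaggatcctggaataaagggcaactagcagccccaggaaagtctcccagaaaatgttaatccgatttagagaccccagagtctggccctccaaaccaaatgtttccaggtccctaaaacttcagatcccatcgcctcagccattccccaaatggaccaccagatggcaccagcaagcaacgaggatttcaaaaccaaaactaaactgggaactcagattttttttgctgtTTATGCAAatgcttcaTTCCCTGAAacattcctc
C3: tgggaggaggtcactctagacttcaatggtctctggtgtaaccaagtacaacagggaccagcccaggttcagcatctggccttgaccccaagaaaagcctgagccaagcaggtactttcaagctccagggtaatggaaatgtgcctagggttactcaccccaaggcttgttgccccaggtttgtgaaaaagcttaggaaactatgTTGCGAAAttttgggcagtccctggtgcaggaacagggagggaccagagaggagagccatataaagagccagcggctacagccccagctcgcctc

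The motifs were TTGCNNAA, read by C/EBP factors, the core of the interferon-stimulated response element (GAAA, any 2 bases, GAAA), TTCNNNGAA, read by STAT dimers, and one form of the kB site (GGG, any 2 bases, TTTCC). C3 held TTGCGAAA, its first base 45 bases before the start. C1ra held TTATGCAA, a match on the other strand, and TTCCCTGAA, whose first base lay 32 bases after the start. C1s1 held TTAGGCAA, again on the other strand, near the upstream end of the window. The other C1s1 entry, chr6:124542272-124542571, begins downstream of that site and held no match, so the match depends on which annotated start is used. The C/EBP form was present in 10.8% of all 32851 promoters of this length, the STAT form in 8.30%, the interferon element in 3.44% and the kB form in 1.63%. The interferon element and the kB form had no match in the 3 promoters shown, which says only that these letters are not in these windows. The promoter of Cd59a held 1 match to the interferon element (GAAAGGGAAA).

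Library totals ran from 40911698 to 47127672 counts. Acsl4 gave 191, 194 and 204 CPM (counts scaled to library size with TMM factors) under the control hairpin and 132, 128 and 127 CPM under its own, a fall of the mean to 0.656 of the control level (edgeR adjusted p = 3.84e-06). Of 14289 genes tested, 29.1% passed the threshold of adjusted p under 0.05 in edgeR's quasi-likelihood test, 15.4% higher and 13.6% lower in shACSL4. Colorectal epithelial markers were scarce in every library: the 10 markers in the table summed to 1.93 to 2.33 CPM in shControl and 3.33 to 4.78 CPM in shACSL4, with Cdh1 and Krt18 at no more than 4 counts in any library. Of these, 3 were tested and 2 rose (66.7%, beside 15.4% of all genes tested). Krt20 rose 1.79-fold (adjusted p = 0.0361) and Lgr5 13.9-fold (adjusted p = 0.000111). Lgr5 had 4, 2 and 2 counts in the controls and 45, 41 and 36 in shACSL4, and passed the filter through shACSL4 alone. Krt8 did not pass the threshold (adjusted p = 0.701). The 8 fibroblast markers summed to 1624 to 1704 CPM in shControl and 1830 to 2143 CPM in shACSL4, nearly all of it Col3a1, Dcn and Pdgfra.

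C1s1 and C1ra, which encode the proteases of the C1 complex, were several-fold higher in shACSL4 with no overlap of the groups. C1s1 (ENSMUSG00000038521, GRCm39 chromosome 6, 124507304 to 124519318) measured 4.56, 4.70 and 4.26 CPM under shControl and 33.9, 27.1 and 29.8 CPM under shACSL4. The controls lay close together and far below the lowest shACSL4 library. Its mean was 4.51 ± 0.223 against 30.3 ± 3.41 CPM (SD, n = 3), a 6.71-fold difference (log2 fold change 2.75, SE 0.109). C1ra (ENSMUSG00000055172, chromosome 6, 124489364 to 124500402) measured 7.43, 7.56 and 10.0 CPM in the controls and 26.9, 30.6 and 36.5 CPM in shACSL4. The groups again did not overlap, and the means of 8.35 ± 1.47 and 31.3 ± 4.84 CPM differed 3.76-fold (log2 fold change 1.91, SE 0.141). C1r and C1s act in the C1 complex as equal partners. Per length, C1s1 stood at 0.584, 0.592 and 0.404 of C1ra under shControl and 1.20, 0.845 and 0.777 of it under shACSL4, as ratios of the authors' FPKM values. Both genes were thus present at more nearly equal FPKM in shACSL4.

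**Figure D1:**
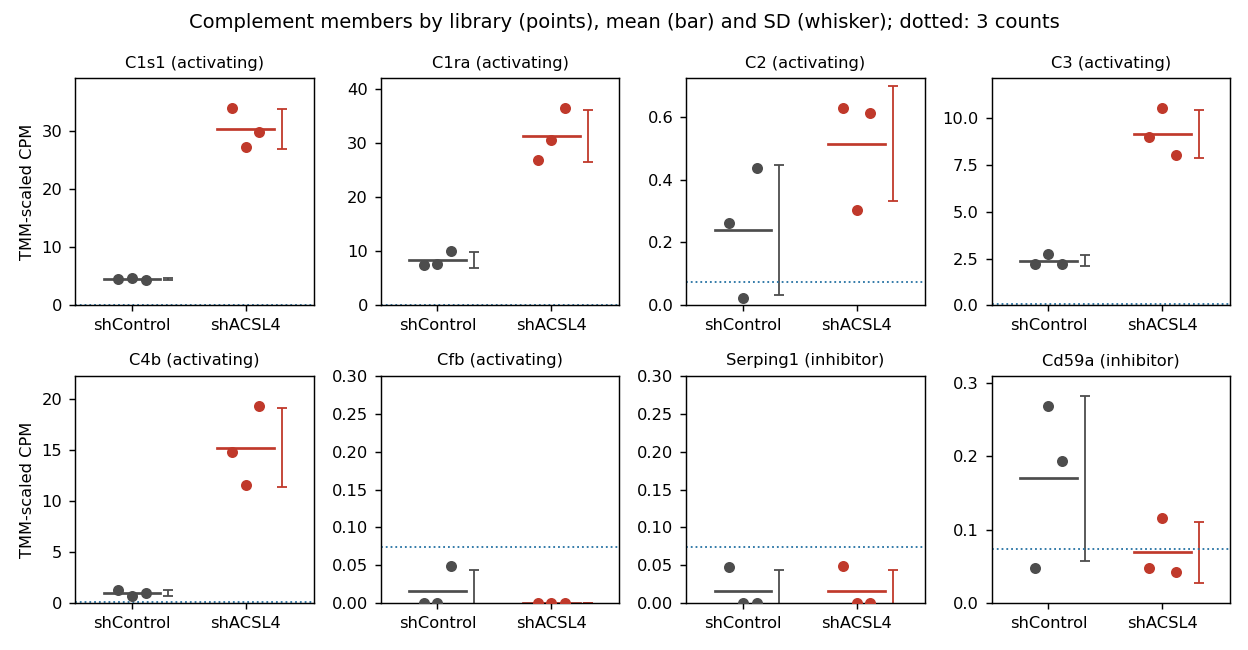
TMM-scaled CPM (linear axes from 0) of the 8 complement genes in each library, with 3 shControl and 3 shACSL4 points per panel, the mean as a bar, the SD as a whisker and a dotted line at 3 counts. C1s1, C1ra, C3 and C4b do not overlap between the groups, C2 and Cd59a overlap, and Cfb and Serping1 lie below the dotted line in all 6 libraries.

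C4b, whose product carries the classical and lectin pathways from the C1 or MASP proteases to the C3 convertase, had the greatest fold difference of the 5 members tested. It (ENSMUSG00000073418, chromosome 17, 34947354 to 34962856) measured 1.28, 0.636 and 0.993 CPM in the controls and 14.8, 11.6 and 19.3 CPM in shACSL4. The lowest shACSL4 library was well above the highest control, and the means of 0.97 ± 0.324 and 15.2 ± 3.9 CPM differed 15.6-fold (log2 fold change 3.97, SE 0.257). C3, the opsonin on which all pathways converge (ENSMUSG00000024164, chromosome 17, 57510970 to 57535136), measured 2.18, 2.72 and 2.23 CPM under shControl and 8.98, 10.6 and 8.01 CPM under shACSL4. Its groups did not overlap either, and the means of 2.38 ± 0.295 and 9.18 ± 1.28 CPM differed 3.86-fold (log2 fold change 1.95, SE 0.156). C2, the protease partner of C4b in the classical convertase, was close to the detection limit: it had 11, 1 and 18 counts in the controls and 26, 13 and 29 counts in shACSL4. The groups overlapped, with 0.241 ± 0.206 against 0.515 ± 0.183 CPM (log2 fold change 1.09, SE 0.634). The C2 gene (chromosome 17, 35081580 to 35117241) overlaps Zbtb12 on the other strand, and the strandedness of the counts is not given in the sources used here. Its log2 fold change was 0.56 without shControl 2 and 1.82 without shControl 3.

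Factor B, the protease of the alternative pathway convertase, was not detectable at this depth. Cfb had 2 counts in shControl 3 and 0 in the other 5 libraries, and a count of 0 allows up to 3 counts, or 0.0634 to 0.0734 CPM. Cfb lies 85 bases from C2 on chromosome 17 and lies in the same gene cluster as C4b, which had 496 counts or more in each shACSL4 library. Of the 5 members that passed the filter on low counts, 4 (C1s1, C1ra, C3 and C4b) had groups that did not overlap. Among all genes tested, this held for 42.8% in either direction and 22.0% with shACSL4 higher. All 5 members, C2 included, had a log2 fold change of at least 1, beside 5.86% of all genes tested. Nothing is read from these counts because the members were chosen on this contrast.

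Both inhibitor members analysed were at or near the detection limit in both groups. Serping1, which encodes the C1 inhibitor that inactivates C1r and C1s, had 2, 0 and 0 counts under shControl and 2, 0 and 0 counts under shACSL4. Cd59a, which encodes the membrane inhibitor of the attack complex, had 2, 11 and 8 counts in the controls and 2, 5 and 2 counts in shACSL4. Its groups overlapped at 0.17 ± 0.113 and 0.069 ± 0.0412 CPM, and neither gene passed the filter. No inhibitor member could therefore be set against the activating members by a fold change.

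Reads of C1s1, C1ra and C4b could be shared with near copies. Aligned over their longest GENCODE M21 transcripts, C1s1 and C1s2 were identical at 96.0% of 2642 bases, C1ra and C1rb at 98.1% of 2427 bases, C4b and C4a at 96.1% of 5367 bases, and Cd59a and Cd59b at 89.9% of 684 bases. How the authors counted reads that fit both copies is not given in the sources used here. C1s2 had 2, 2 and 2 counts under shControl and 6, 9 and 4 under shACSL4, and C1rb had no more than 3 counts in any library. C4a had 25, 20 and 17 counts in the controls and 31, 31 and 12 in shACSL4 (log2 fold change 0.19, SE 0.451, edgeR adjusted p = 0.784). Nearly all reads assigned to these pairs in shACSL4 thus went to C1s1, C1ra and C4b.

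C1ra and its scarcely counted copy C1rb also share a stretch of promoter, shown here because these genes differ so widely in counts. The RefSeq windows, both on the plus strand of chromosome 6 in GRCm38.p6, align at chr6:124512522-124512670 (C1ra) and chr6:124570180-124570328 (C1rb), with 139 of 148 aligned bases identical. Capitals mark the bases that differ or lie in a gap of the alignment.
C1ra: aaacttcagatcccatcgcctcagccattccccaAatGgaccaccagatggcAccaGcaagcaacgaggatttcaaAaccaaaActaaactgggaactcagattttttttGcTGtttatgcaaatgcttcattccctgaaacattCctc
C1rb: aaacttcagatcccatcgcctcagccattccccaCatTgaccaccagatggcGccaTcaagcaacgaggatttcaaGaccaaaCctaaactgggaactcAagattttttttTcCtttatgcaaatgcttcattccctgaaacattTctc
The stretch reaches from 99 bases before to 49 bases after the start annotated for C1ra, whereas it lies wholly upstream of the start annotated for C1rb. The matches to the C/EBP and STAT motifs in C1ra lie in this stretch and are present in C1rb too.

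Of 53 further complement genes on the lists, 41 were in the table and 17 passed the filter. Of these 17, 6 rose (35.3%, beside 15.4% of all genes tested) and 1 fell (5.88%, beside 13.6%), with a median log2 fold change of 0.19 against -0.01 over all genes tested. The lists were made with earlier results of these data known. Itgb2, C1rl, Csmd3, Hc and C8g were among the genes that rose, and the gene that fell was Colec10.

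**Figure D2:**
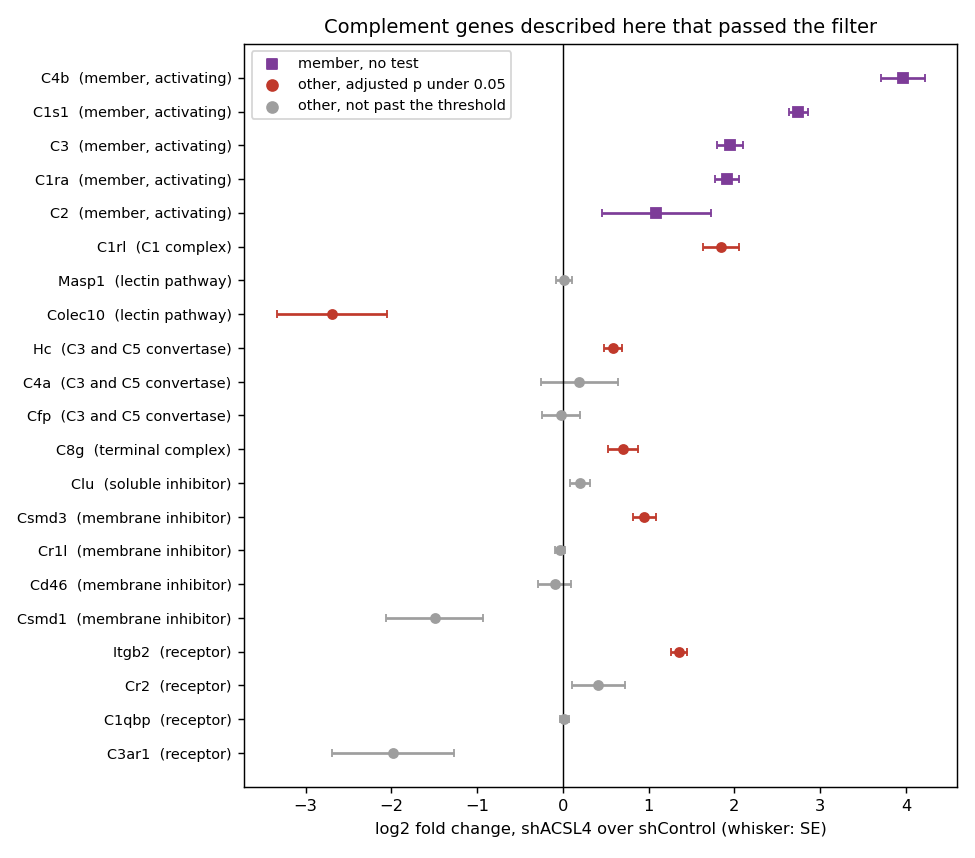
Log2 fold change of shACSL4 over shControl (x axis, whiskers are the SE) for the complement genes described here that passed the filter, grouped by role. Members (squares) carry no test. Of the other genes, Itgb2, C1rl, Csmd3, Hc and C8g lie to the right in red and Colec10 to the left in red, and the rest, in grey, did not pass adjusted p under 0.05.

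Among activating genes outside the members, C1rl, which encodes a C1r-like protease and lies 1761 bases from C1ra, measured 2.40, 1.62 and 2.01 CPM under shControl and 7.44, 5.36 and 8.86 CPM under shACSL4. It rose 3.59-fold without overlap of the groups (edgeR adjusted p = 3.97e-05). Hc, which encodes C5, rose 1.49-fold, from 11.0 ± 1.05 to 16.4 ± 1.16 CPM (adjusted p = 0.0013). C8g, a chain of the attack complex component C8, rose 1.62-fold, from 2.08 ± 0.218 to 3.37 ± 0.155 CPM (adjusted p = 0.01). Masp1, a protease gene of the lectin pathway, was at 13.7 ± 0.176 and 13.9 ± 0.857 CPM (adjusted p = 0.906), and Cfp, which encodes the convertase stabiliser properdin, at 3.03 ± 0.893 and 2.98 ± 0.366 CPM (adjusted p = 0.954). Colec10, a collectin of the lectin pathway, fell from 21, 28 and 38 counts in shControl 1 to 3 to 6, 0 and 8 counts in shACSL4 1 to 3 (log2 fold change -2.69, SE 0.642, adjusted p = 0.00734). It passed the filter through the controls alone. The C1q chains C1qa and C1qb and the factor D gene Cfd had no more than 2 counts in any library. C7, an attack complex gene below the filter and named after its values were seen, had 0, 2 and 0 counts in the controls and 13, 18 and 9 in shACSL4.

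Of 6 inhibitor genes tested outside the members, 2 rose (33.3%, beside 15.4% of all genes tested), Csmd3 among them. None fell, beside 13.6% of all genes tested. Cr1l, the Crry gene, measured 91.0, 86.7 and 90.5 CPM in the controls and 87.0, 84.6 and 90.4 CPM in shACSL4. Its groups overlapped (log2 fold change -0.03, SE 0.0541, edgeR adjusted p = 0.682). Cd46 was at 3.61 ± 0.75 and 3.37 ± 0.541 CPM (adjusted p = 0.75). Clu, which encodes clusterin, a chaperone that binds the attack complex, was at 16.6 ± 2.36 and 19.1 ± 2.36 CPM (adjusted p = 0.231), and passed the threshold without shControl 3 (adjusted p = 0.0216, with 0.0216 to 0.628 over all alternatives). Csmd3, which encodes a large membrane protein with complement control domains, rose 1.93-fold, from 5.96 ± 0.905 to 11.5 ± 1.17 CPM (adjusted p = 0.000234), while its relative Csmd1 had 10, 12 and 16 counts under shControl and 6, 4 and 4 under shACSL4 (adjusted p = 0.0639). Cfi, which encodes a protease that inactivates C3b and C4b fragments, had no more than 4 counts in any library.

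Of the 4 receptor genes tested, only Itgb2 passed the threshold. This gene, which encodes the beta chain shared by complement receptors 3 and 4 and other leukocyte integrins, rose 2.56-fold, from 9.87 ± 0.923 to 25.2 ± 1.00 CPM (edgeR adjusted p = 7.49e-07), while Itgax, an alpha chain that pairs with it, had no more than 6 counts in any library. C3ar1, the receptor gene for C3a, had 13, 14 and 22 counts in the controls and 4, 0 and 9 in shACSL4. It did not pass the threshold (adjusted p = 0.0535) but passed it, as lower, with the replicate number as a block, with no filter and without shACSL4 3 (adjusted p of 0.0275 to 0.136 over all alternatives). Like Colec10 and Csmd1, it passed the filter through the controls alone. C5ar1 had no more than 9 counts in any library. C1qbp, a mostly mitochondrial protein that also binds C1q, was abundant at 266 ± 7.19 and 270 ± 5.59 CPM (adjusted p = 0.822), and Cr2 was at 0.796 ± 0.186 and 1.06 ± 0.153 CPM (adjusted p = 0.351).

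Levels per length, in the authors' FPKM, spread the activating members over a wide range. In the controls C1ra averaged 2.78 ± 0.455 FPKM and C1s1 1.43 ± 0.086, against a median of 1.13 over the 20733 genes with a value above 0. C3 averaged 0.46 ± 0.0583 FPKM and C4b 0.17 ± 0.0576 FPKM there, below that median, and C2 0.0616 FPKM. In shACSL4 the averages were 10.5 ± 1.62 FPKM for C1ra, 9.71 ± 1.13 for C1s1, 2.68 ± 0.691 for C4b and 1.79 ± 0.245 for C3, all above the median of 1.03 over 21347 genes, while C2 averaged 0.133 FPKM and Cfb was listed at 0. C1ra then exceeded 78.0% and C4b 58.2% of these genes, compared with 57.8% and 35.8% in the controls. The order of mean FPKM was C1ra, C1s1, C3, C4b and C2 in the controls and C1ra, C1s1, C4b, C3 and C2 in shACSL4. In shACSL4 the FPKM of C1ra and C1s1 overlapped between libraries, whereas in the controls every C1ra value was above every C1s1 value.

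Summed FPKM set the activating side against the inhibitors in each library. The 6 activating members summed to 4.70, 4.68 and 5.37 FPKM under shControl and to 24.5, 23.1 and 27.0 FPKM under shACSL4. The 2 inhibitor members summed to 0.0234 to 0.149 FPKM across all 6 libraries, with overlap between the groups. The membrane regulators Cr1l and Cd46 together stood at 9.41, 8.86 and 8.95 FPKM in the controls and 8.87, 8.57 and 9.30 FPKM in shACSL4. The activating sum was therefore 0.543 ± 0.0519 of the Cr1l and Cd46 sum in the controls and 2.79 ± 0.106 of it in shACSL4 (SD, n = 3). These sums were formed after the values were seen, carry no test and do not hold every inhibitor that was measured, an inhibitor that rose among those left out. Clu, at 4.82 ± 0.634 FPKM in the controls and 5.58 ± 0.694 FPKM in shACSL4, is left out too. The activating sum holds only members, which were chosen on this contrast. It leaves out activating genes that rose less or, like Masp1 and Cfp, did not pass the threshold. The size of the ratio therefore depends on the genes chosen.

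**Figure D3:**
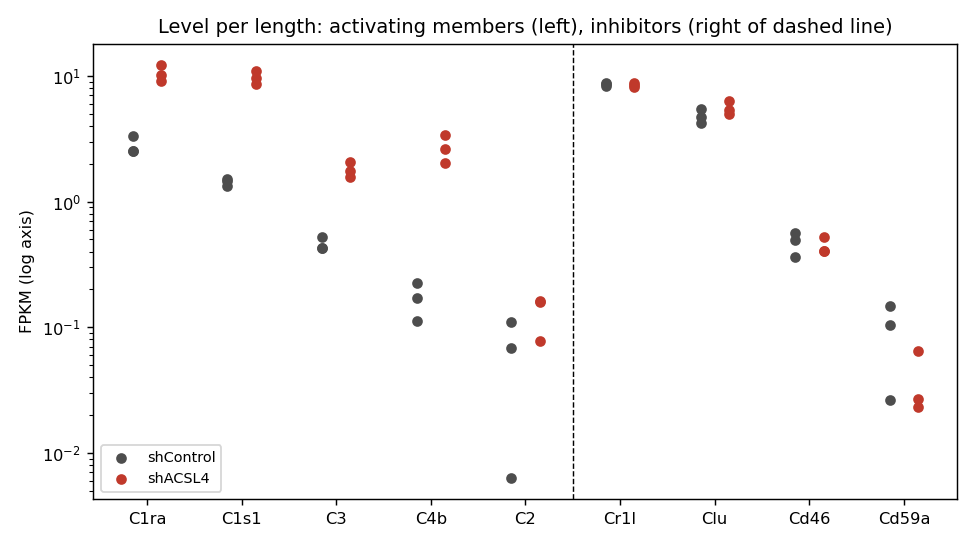
FPKM on a log axis for each of 3 shControl and 3 shACSL4 libraries, with the activating members to the left of the dashed line and inhibitors to the right. C1ra, C1s1, C3 and C4b are higher in shACSL4 without overlap, while Cr1l, Clu and Cd46 overlap between the groups. Cfb and Serping1 are not drawn because most of their values are 0.

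Among genes that are known to control complement transcription, Irf1 and Stat3 rose. Of 28 tested genes of interferon, IL-6 family, IL-1, TNF and NF-kB signalling 18 rose (64.3%, beside 15.4% of all genes tested) and 1 fell, with a median log2 fold change of 0.30. Irf1, a transcription factor that interferons induce, rose 1.54-fold (edgeR adjusted p = 1.02e-05). Stat3, the transducer of IL-6 family signals, rose 1.63-fold (adjusted p = 2.38e-06), and the receptor genes Osmr, Lifr and Tnfrsf1b rose 2.67-fold, 2.27-fold and 1.76-fold (adjusted p of 6.82e-07 to 1.89e-06). Cebpb rose 1.24-fold (adjusted p = 0.017), a call that ended without shControl 1, shACSL4 2 or shACSL4 3 (adjusted p = 0.0748, 0.0505 and 0.0823, with 0.00809 to 0.0823 over all alternatives). Nfkb1 was at 77.5 ± 2.35 and 82.9 ± 2.55 CPM (adjusted p = 0.211). The ligand genes Il6, Osm, Ifnb1, Ifng, Il1b and Tnf were below the filter in both groups. Another ligand gene, Lif, was the 1 that fell, from 19.6 ± 0.791 to 15.4 ± 2.43 CPM (edgeR adjusted p = 0.0342). That call ended when some single libraries were left out (adjusted p of 0.00788 to 0.145 over all alternatives). Whether any of these signalling genes acts on the complement genes in these cells was not tested.

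Acute phase genes, which the liver induces together with complement, were mostly higher where tested. Of 7 tested, 5 rose (71.4%, beside 15.4% of all genes tested), with a median log2 fold change of 2.88. Cp, the ceruloplasmin gene, rose 7.67-fold, from 5.34 ± 0.812 to 41.0 ± 4.93 CPM (edgeR adjusted p = 1.08e-08). Serpina3n, a protease inhibitor gene with close relatives among which its reads may be split, rose 7.74-fold (adjusted p = 2.66e-06). Lbp, which encodes the lipopolysaccharide-binding protein, rose 11.5-fold to 2.34 ± 0.595 CPM (adjusted p = 9.4e-06). Serpina3g and Lcn2 also rose (adjusted p = 0.00116 and 0.00789), and Lcn2 passed the filter through shACSL4 alone. Lbp and Serpina3g had only 1 control library above the filter's cut-off, against 3 shACSL4 libraries. The share that rose thus rests partly on genes that entered the test because shACSL4 was high. Below the filter, Saa3 had 8, 2 and 2 counts in the controls and 0, 0 and 0 in shACSL4. A2m, also below it, had 0, 2 and 0 counts in the controls and 14, 10 and 12 in shACSL4.

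The shACSL4 libraries differed among themselves by gene. C4b stood 3.99, 3.63 and 4.37 above the control mean on the log2 scale in shACSL4 1 to 3, and C1rl 1.91, 1.44 and 2.16. Both were highest in shACSL4 3 and lowest in shACSL4 2, as were Stat2 (1.63, 1.33 and 2.10) and Irf9 (1.91, 1.64 and 2.14). Stat2 and Irf9 were named after their values were seen, and a link to complement was not tested. Osmr (1.42, 1.33 and 1.52), Cp (2.94, 2.78 and 3.12) and Hc (0.605, 0.468 and 0.670) had the same order. That order was thus not particular to Stat2 and Irf9. Irf1 and Stat3 had another order: Irf1 (0.665, 0.576 and 0.644) was highest in shACSL4 1 and Stat3 (0.654, 0.744 and 0.714) in shACSL4 2. C3 stood at 1.93, 2.16 and 1.76, highest in shACSL4 2, and C1s1 at 2.91, 2.59 and 2.73, highest in shACSL4 1. C1ra, at 1.70, 1.89 and 2.14, was lowest in shACSL4 1. The genes most like C1ra in profile, by the root mean square difference of log2 CPM over the 6 libraries, were Ppargc1a (0.123), Lgals3bp (0.149) and Scn1a (0.156). The search covered 10110 genes with counts in every library and a mean of at least 5 CPM over the 6 libraries.

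**Figure D4:**
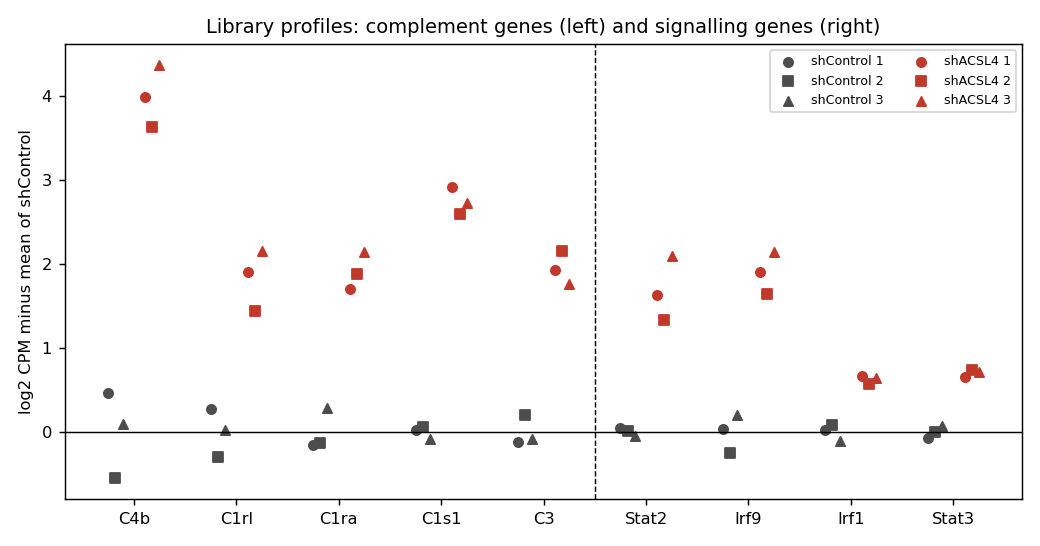
Log2 CPM of each library relative to the mean of the 3 shControl libraries, for complement genes left of the dashed line and signalling genes right of it. Symbols give the replicate number. C4b, C1rl, Stat2 and Irf9 have their highest shACSL4 value in library 3 and their lowest in library 2. C3 and Stat3 have their highest in library 2, and Irf1 has its highest in library 1.

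Markers of other cells that make complement were measured beside these results. The 8 leukocyte markers in the table summed to 6.39 to 8.10 CPM in shControl and 9.77 to 10.3 CPM in shACSL4, mostly Cd68 and Lyz2. Of 3 tested, 1 rose (33.3%, beside 15.4% of all genes tested) and none fell. Lyz2 rose 2.98-fold (edgeR adjusted p = 9.26e-05). Cd68, at 5.32 ± 1.22 and 4.68 ± 0.442 CPM, and Cd79a did not pass the threshold (adjusted p = 0.466 and 0.787). The defining markers Ptprc and Tyrobp had no more than 4 counts in any library. The 3 hepatocyte markers in the table summed to 0.665 to 0.979 CPM and 1.03 to 1.56 CPM. Most of this was Apoa2, which overlapped between the groups at 0.807 ± 0.181 and 1.12 ± 0.317 CPM (adjusted p = 0.303). Alb had 0 counts in every control and 8, 2 and 4 counts in shACSL4 1 to 3, and Apoa1 no more than 2 counts in any library. Of 7 fibroblast markers tested, 3 rose (42.9%) and 1 fell (14.3%), beside 15.4% and 13.6% of all genes tested. Pdgfra rose 2.15-fold (adjusted p = 4.85e-08), while Dcn fell to 0.783 of its control level (adjusted p = 0.0431). The alternatives were not run for these markers or for the epithelial markers. The part of these transcripts in the complement results was not tested. In such pooled RNA, fewer cells with a transcript and less transcript per cell cannot be told apart.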

How the data were processed

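Per the file headers, the deposited table gave unnormalised whole-number counts of the 6 libraries and FPKM values that the authors made with a gene length not defined in the sources used here. It also held the log2 fold change and p-value of the authors' own comparison, which were not used for results. Per the labels' protocols, total RNA had its ribosomal RNA removed, and random hexamers primed the cDNA. Per the submitters' processing notes, CASAVA, HISAT2 and DESeq2 were used with GRCm39. The counting program, annotation release and strandedness are not given in the sources used here.

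Counts were tested over the whole table in R 4.3.3 with edgeR 4.0.16 (robust quasi-likelihood test, two-sided, TMM scaling, minimum count 10, minimum total 15, group as the only term). Benjamini-Hochberg adjustment ran over 14289 genes, with a threshold of 0.05. Each standard error is the size of the log2 fold change over the root of its F statistic. Intervals and floors of 3 counts cover counting error only. The fit was also run on simulated data with known changes, and no result here rests on that run. It used dispersions estimated by edgeR from these data. The changes were given only to genes well above the filter's cut-off, so it does not check genes near the filter. Alternatives were DESeq2's size factors, library size alone, DESeq2 1.42.0 as the test, no filter, the replicate number as a block, and each library left out in turn. Members, lists, motifs and tests were chosen with earlier results of these data known. The complement genes that passed the filter are named, with up to 6 signalling and acute phase genes of smallest adjusted p and 5 fixed signalling genes. Stat2, Irf9, C7, the ligand genes, the marker genes, the summed FPKM and the ratios were chosen for the text after their values were seen. The likeness search was made for the activating member of highest control FPKM, and the one planned for an inhibitor was not made because none passed the filter. Some genes of these lists enter the counts and are not reported here.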

Additional observations from a re-analysis of the deposited data

How the results depend on the processing

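The log2 differences of the 4 members well above the filter kept their direction under every alternative run and ranged from 2.66 to 2.82 for C1s1, 1.79 to 2.07 for C1ra, 1.84 to 2.05 for C3 and 3.74 to 4.22 for C4b. C2 ranged from 0.56 to 1.82. All 7 complement genes called outside the members were called under every alternative. The planned difference between activating and inhibitor members was not computed, because no inhibitor member passed the filter. Whether equal replicate numbers pair the libraries is not settled. Deviations from the group means correlated at 0.115, 0.0634 and 0.201 for equal numbers 1, 2 and 3. For unequal numbers the correlations ran from -0.204 to 0.130 and most were negative. However, shControl 2 correlated best with shACSL4 1. With the replicate number as a block, 2616 genes were higher and 2547 lower in shACSL4, against 2205 and 1950 without it, and 2 complement genes outside the members were lower in place of 1, as with no filter (2), C3ar1 being the addition. With libraries left out in turn, 1252 to 2659 genes were lower, with 1252 without shACSL4 3 (cause not tested), 1666 to 2818 were higher, 6 to 8 complement genes outside the members were higher and 1 to 2 lower. C7 was also called higher with DESeq2, with no filter, and without shControl 1, 2 or 3 or shACSL4 3. Depth limits Cfb, Serping1, Cd59a and C2, all under 30 counts in each library.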
